A study of Mus musculus with 19 samples.

Results

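The mRNA of 8 ion channel genes was followed in retinal microglia on day 3 after laser-induced choroidal neovascularization (CNV d3) and in microglia of unlasered control retinas. The genes were the potassium channels Kcnk13, Kcnk6, Kcnj2, Kcna3 and Kcnn4 and the transient receptor potential (TRP) channels Trpv2, Trpm2 and Trpm7. They were chosen by name as the potassium and TRP channels of microglia, with earlier results of these data known. All 8 were found among the 27299 genes of the expression table. In CNV d3, Kcna3 and Kcnk6 were higher, Kcnk13 and Kcnj2 were lower, and Kcnn4 and the 3 TRP channels did not pass the test.

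Microglia are the tissue macrophages of the retina. Potassium channels let potassium leave or enter the cell and so set the membrane potential, which in microglia is tied to the branching of the cell processes, to calcium entry and to the release of interleukin-1 beta by the inflammasome, a protein complex that responds to loss of potassium from the cell. The tandem-pore channels encoded by Kcnk13 (THIK-1) and Kcnk6 (TWIK-2) carry background outward current, Kcnj2 (Kir2.1) is an inward rectifier, Kcna3 (Kv1.3) opens on depolarization and Kcnn4 (KCa3.1) opens when calcium binds its calmodulin subunits. TRP channels are cation channels that mostly let calcium in. Trpm2 opens with ADP-ribose during oxidative stress, and Trpm7 carries magnesium and zinc and ends in a kinase domain.

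The study compared 6 CNV d3 samples with 6 control samples to describe how microglia change at the lesion. Mice were 8 weeks old. The CNV d3 eyes had received 6 laser burns each, and the control eyes had none. The labels name C57BL/6J mice and sorted cells positive for CD45, CD11b and CX3CR1 and negative for Ly6C and Ly6G, whereas the methods name Cx3cr1 GFP/+ mice, in which GFP replaces 1 Cx3cr1 allele in both groups, and cells low for CD45. Nothing in the sources used here ties a sample to 1 animal, so the p-values measure the spread between these samples.

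Values are normalised counts, that is reads per gene divided by the size factor of the sample, and 1 read was worth 1.00 to 1.99 normalised counts in control and 0.739 to 0.895 in CNV d3. Samples held 10963178 to 22335233 reads on genes in control and 23532260 to 29523018 in CNV d3, with control replicate 6 the shallowest. All control samples but only 1 CNV d3 sample were listed in 2 parts, so this difference and the laser cannot be told apart. The 3 CNV d3 samples with replicate numbers 4 to 6 held 4077, 5349 and 4270 reads on 4 Y-linked genes, and the other 9 samples held 0 or 1. Results are therefore also given for the 3 CNV d3 samples with no such reads against the 6 control samples. All 12 microglia markers were expressed, of which 7 were lower and 1, Itgam, was higher in CNV d3, and the list summed to 1218220 to 1377770 normalised counts in control and 689685 to 1014450 in CNV d3. Of 9 monocyte markers 6 were higher, with sums of 386 to 1178 in control and 1237 to 5013 in CNV d3, and Ly6c2, Chil3 and F10 had no reads in any control sample. In bulk samples a change in the number of cells of a type and a change in RNA per cell cannot be told apart. The part of the monocyte markers in the channel values was not tested.

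The bases before the start of 3 of the called genes are shown because their composition differed widely. They were read from RefSeq on build GRCm38.p6, as the 250 bases before the start site in the direction of transcription, and 7 of the 8 genes had such an entry, Kcnk6 having none. Capitals mark an E-box (CACGTG) or a GC box (GGGCGG). The search, on both strands, also included a PU.1-type site (GAGGAAGT) and an AP-1 site (TGANTCA), and none of these motifs overlapped within the 3 windows.
Kcnk13, chr12:99964249-99964498, plus strand: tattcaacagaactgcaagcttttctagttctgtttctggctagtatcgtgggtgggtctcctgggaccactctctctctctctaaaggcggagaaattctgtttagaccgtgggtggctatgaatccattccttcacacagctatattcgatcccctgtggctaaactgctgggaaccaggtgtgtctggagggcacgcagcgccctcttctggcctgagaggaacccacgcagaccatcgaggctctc
Kcnj2, chr11:111065914-111066163, plus strand: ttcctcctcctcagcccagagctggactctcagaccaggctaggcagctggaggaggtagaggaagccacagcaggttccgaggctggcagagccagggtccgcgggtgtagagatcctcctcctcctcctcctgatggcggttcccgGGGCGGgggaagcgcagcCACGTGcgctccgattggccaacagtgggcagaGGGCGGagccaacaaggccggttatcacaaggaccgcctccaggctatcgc
Kcna3, chr3:107035912-107036161, plus strand: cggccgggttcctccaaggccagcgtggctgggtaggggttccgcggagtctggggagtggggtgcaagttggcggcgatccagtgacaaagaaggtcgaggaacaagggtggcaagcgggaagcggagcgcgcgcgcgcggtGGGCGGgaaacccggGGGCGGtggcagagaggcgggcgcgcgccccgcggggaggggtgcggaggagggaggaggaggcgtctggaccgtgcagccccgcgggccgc
The Kcnk13 window held none of the motifs, 52.8% G and C and 8 CpG. The Kcnj2 window held 1 E-box at bases -84 to -79 and 2 GC boxes, with 14 CpG. The Kcna3 window held 2 GC boxes, 74.4% G and C and 31 CpG, and 94.8% of the 32851 promoters of the table had fewer CpG. Over all these promoters the median was 52.4% G and C and 6 CpG, 6.02% held an E-box, 32.7% a GC box, 2.44% a PU.1-type site and 6.75% an AP-1 site. Among the other members, Kcnn4 and Trpm7 held an E-box, and Kcnn4 and Trpm2 held a GC box. Trpv2 had 3 start sites. A PU.1-type site lay at bases -14 to -7 from the first and -41 to -34 from the second, and the third window held no motif. These matches describe letters, and no binding was measured.

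A gene was called when its adjusted p in limma, over all genes, was under 0.05, and a differentially expressed gene (DEG) by the threshold of the study had in addition an absolute log2 fold change above 1.5. By this test 2 members were higher and 2 lower, where 8.29% of all genes were called higher and 4.57% lower (2264 and 1247 genes, or 1898 and 1810 under upper quartile scaling). The call of Kcna3 held in all 25 alternative fits, that of Kcnk6 in 22, that of Kcnk13 in 14 and that of Kcnj2 in 11. Of the members 1 was a higher DEG and 0 were lower DEG, against 3.91% and 1.07% of all genes. The median log2 fold change of the members was 0.35, beside 0.15 for all genes and 0.10 for the 12753 genes with at least 10 normalised counts in at least 6 samples, a filter that all 8 members passed. Of those 12753 genes 13.8% were called higher and 9.45% lower. Because the members were chosen with earlier results of these data known, these comparisons with all genes are descriptive.

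**Figure D1:**
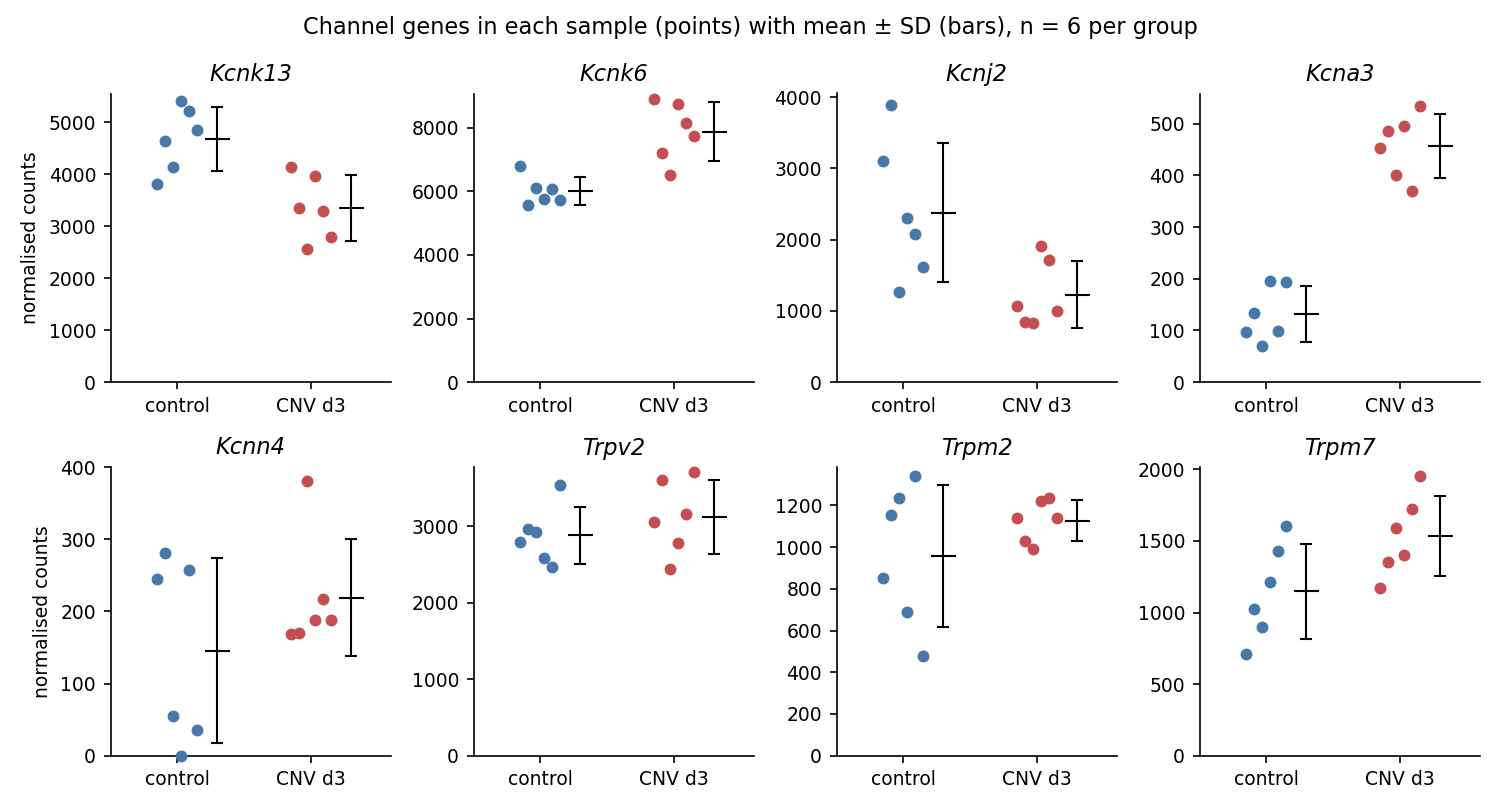
Normalised counts (y axis, from 0) of each of the 8 channel genes in the 6 control and 6 CNV d3 samples, with a point for each sample and a black bar for mean ± SD beside it. The groups are apart for Kcna3, with 6 of 6 CNV d3 samples above every control sample, and overlap for the other 7 genes.

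The tandem-pore channels had the highest levels per exon length among the members and moved in opposite directions. Kcnk13 lies on chromosome 12 from 99964499 to 100062682 (GRCm38, plus strand) and encodes THIK-1, the channel of the resting potassium current of microglia. It ranged from 3813 to 5411 normalised counts in control (median 4752) and from 2555 to 4149 in CNV d3 (median 3325). The groups overlapped, with 4 CNV d3 samples below every control sample. The mean fell from 4681 ± 616 to 3354 ± 628 (SD, n = 6 each), a log2 fold change of -0.49 ± 0.13 (SE) with a 95% interval of -0.77 to -0.21 and a limma adjusted p of 0.0207. The two-sided exact permutation p over the 924 ways to label the samples was 0.0108. The call was lost without control replicates 2, 4, 5 or 6 or CNV d3 replicates 2, 3, 5 or 6, with adjusted p of 0.0513 to 0.0676, and against the 3 CNV d3 samples with no Y-linked reads the log2 fold change was -0.50 with an adjusted p of 0.142.

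Kcnk6, on chromosome 7 from 29221926 to 29232515 (minus strand), encodes TWIK-2, a channel known in macrophages for potassium loss ahead of inflammasome activation. It ranged from 5574 to 6806 normalised counts in control (median 5913) and from 6524 to 8910 in CNV d3 (median 7942). Of the 6 CNV d3 samples 5 lay above every control sample. The mean rose from 6009 ± 441 to 7878 ± 920 (SD, n = 6 each), with a log2 fold change of 0.39 ± 0.089 (SE), a 95% interval of 0.20 to 0.57, a limma adjusted p of 0.00928 and an exact permutation p of 0.00433. The call held without each of the 12 samples, and with only the 3 CNV d3 samples without Y-linked reads the log2 fold change was 0.32 with an adjusted p of 0.133.

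Within each sample the balance of these channels differed between the groups. Levels were compared between genes as RPKM, reads scaled to the length of the exons and to the total reads on genes of the sample. The ratio of Kcnk6 to Kcnk13 was 0.798 to 1.34 in control (median 0.892) and 1.61 to 2.07 in CNV d3 (median 1.75), so that every CNV d3 sample had more Kcnk6 than Kcnk13 and the ranges did not meet. The ratio was chosen after the values were seen and was not tested.

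Kcnj2, the inward rectifier Kir2.1, lies on chromosome 11 from 111066164 to 111076821 (plus strand). It was spread widely, from 1262 to 3896 normalised counts in control (median 2196) and from 825 to 1916 in CNV d3 (median 1033). Of the CNV d3 samples 4 were below every control sample, and 2 with Y-linked reads, replicates 4 and 5, were the highest of their group at 1916 and 1710. The mean fell from 2377 ± 974 to 1227 ± 467 (SD, n = 6 each), with a log2 fold change of -0.93 ± 0.28 (SE), a 95% interval of -1.53 to -0.34, a limma adjusted p of 0.0381 and an exact permutation p of 0.0195. When 1 sample was left out the call held only without control replicate 3 or CNV d3 replicate 4, and without any other sample the adjusted p was 0.0546 to 0.134. Against the 3 CNV d3 samples without Y-linked reads the log2 fold change was -1.29 with an adjusted p of 0.0797, and with the presence of these reads as a term in the fit over all 12 samples it was called, with an adjusted p of 0.0239.

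Kcna3 was the DEG among the members and the gene whose groups did not overlap, which was true with CNV d3 above control for 4.64% of all genes and with CNV d3 below for 2.83%. The gene, on chromosome 3 from 107036169 to 107038070 (plus strand, a single exon of 1902 bases), encodes Kv1.3, a voltage-gated channel of T cells and of activated microglia. Its normalised counts were 69.8 to 196 in control (median 117) and 369 to 535 in CNV d3 (median 469). All 6 CNV d3 samples lay above the highest control sample. The mean rose from 132 ± 53.3 to 456 ± 62.1 (SD, n = 6 each), 3.66-fold on the scale of log2(value + 1), with a log2 fold change of 1.87 ± 0.26 (SE), a 95% interval of 1.31 to 2.43 and a limma adjusted p of 0.000315. The exact permutation p was 0.00216, the smallest that this design can give. With the 3 CNV d3 samples without Y-linked reads its log2 fold change was 1.85 with an adjusted p of 0.0212.

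T cells are among the other cells known to express Kcna3. The 8 measured T cell markers summed to 0 to 32.4 normalised counts in control and 1.48 to 30.4 in CNV d3. Of the 8, 1 was called higher (Thy1, mean 6.36 in CNV d3 and no reads in control), where 8.29% of all genes were called higher. Cd3d, Cd3g and Cd8a had no reads in control and means of 0.123, 0.870 and 0.557 in CNV d3, and were not called. Thy1 also stood on the list of retinal neuron markers. Monocyte markers, of which 6 of 9 were higher, summed to 386 to 1178 in control and 1237 to 5013 in CNV d3. The part of T cells or monocytes in the Kcna3 values was not tested.

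Kcnn4, on chromosome 7 from 24370263 to 24386690 (plus strand), encodes the calcium-activated channel KCa3.1. It ran from 0 to 281 normalised counts in control (median 150) and from 168 to 381 in CNV d3 (median 188). Control samples fell into high and low values, with 245, 281 and 257 in replicates 1, 2 and 5 and 55, 0 and 36 in replicates 3, 4 and 6. The means were 146 ± 128 and 219 ± 81.4 (SD, n = 6 each), and the log2 fold change of 1.87 ± 1.09 (SE) had a 95% interval of -0.45 to 4.19 and a limma adjusted p of 0.320 (exact permutation p 0.156). Without control replicate 4, the sample with no reads, the log2 fold change was 0.70, and on the recovered reads of all samples it was 0.59 in both edgeR and DESeq2. Kcnn4 was not called in any of the 25 alternative fits.

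**Figure D2:**
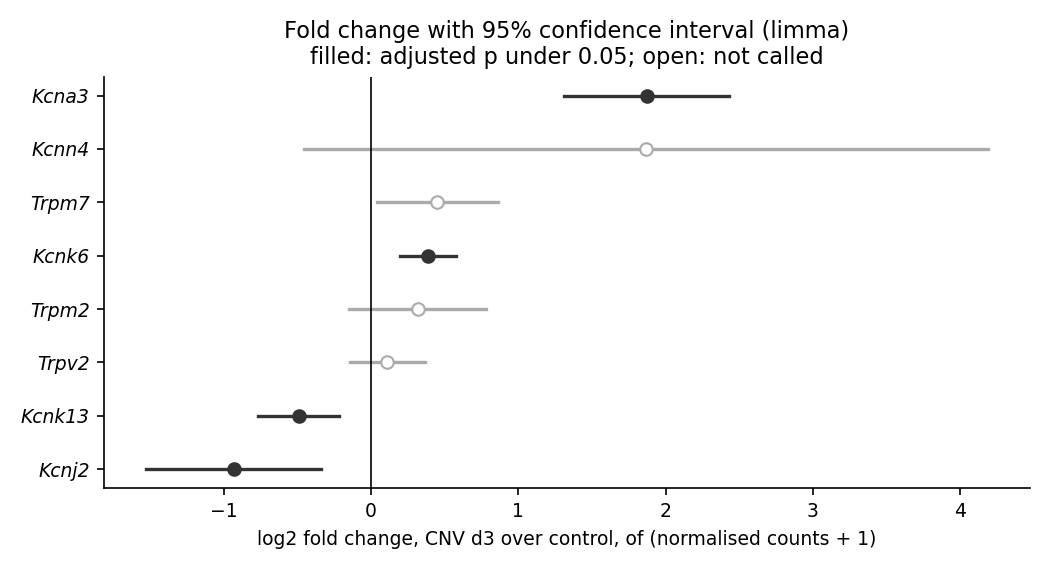
Log2 fold change of CNV d3 over control (x axis, on values plus 1) for the 8 channel genes, with 95% confidence intervals from limma over 6 and 6 samples, filled where the gene was called. The interval of Kcna3 runs from 1.31 to 2.43, and that of Kcnn4 from -0.45 to 4.19.

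None of the 3 TRP members was called. Trpv2, on chromosome 11 from 62574486 to 62600515 (plus strand), encodes a calcium-permeable channel of macrophages and had the highest level per exon length of the 3. Its normalised counts were 2472 to 3535 in control (median 2861) and 2439 to 3710 in CNV d3 (median 3101). The groups covered the same range, and the log2 fold change of 0.11 ± 0.12 (SE, limma adjusted p 0.582) had a 95% interval of -0.14 to 0.37. Leaving out 1 sample moved it between 0.059 (without CNV d3 replicate 6) and 0.18 (without CNV d3 replicate 3).

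Trpm2, on chromosome 10 from 77907722 to 77970563 (minus strand), shares 91 exon bases with 2 predicted genes of the same strand. It ranged from 477 to 1341 normalised counts in control (median 1004) and from 993 to 1234 in CNV d3 (median 1141). The spread was larger in control, with a coefficient of variation of 35.5% against 8.72% in CNV d3, and the lowest value was that of the shallowest control sample. The log2 fold change was 0.32 ± 0.22 (SE), with a 95% interval of -0.15 to 0.78 and a limma adjusted p of 0.409. Without that sample, control replicate 6, it was 0.13 (adjusted p 0.594).

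Trpm7, on chromosome 2 from 126791565 to 126876230 (minus strand), ranged from 712 to 1603 normalised counts in control (median 1119) and from 1175 to 1955 in CNV d3 (median 1496). Of the CNV d3 samples 2 lay above every control sample. The log2 fold change was 0.45 ± 0.19 (SE), and its 95% interval of 0.04 to 0.86 did not include 0, but the limma adjusted p was 0.149 and the exact permutation p 0.0606.

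The order of the levels was read in RPKM within each group. In control it ran from Kcnk13 (68.8 ± 8.66, SD, n = 6) and Kcnk6 (66.2 ± 5.11) over Trpv2 (29.4 ± 4.02) and Kcnj2 (20.1 ± 8.47) to Trpm7 (4.63 ± 1.32), Trpm2 (3.51 ± 1.2), Kcna3 (3.18 ± 1.29) and Kcnn4 (1.31 ± 1.15). The ranges of neighbours were apart between Kcnk6 and Trpv2 and between Kcnj2 and Trpm7, and overlapped for the other neighbours. In CNV d3 the order was Kcnk6 (88.4 ± 9.76), Kcnk13 (50.2 ± 9.10), Trpv2 (32.4 ± 4.81), Kcna3 (11.2 ± 1.48), Kcnj2 (10.5 ± 4.03), Trpm7 (6.31 ± 1.17), Trpm2 (4.21 ± 0.355) and Kcnn4 (2.00 ± 0.772), with overlap between Kcna3 and Kcnj2 and between Kcnj2 and Trpm7 only. The ratio of Kcna3 to Kcnj2 was 0.0892 to 0.345 in control and 0.618 to 1.64 in CNV d3, and was not tested. Exon lengths came from Gencode M21, not from the release the authors counted on. With the longest transcript in place of all exons the ranges of Trpv2 and Kcnk13 and of Trpm7 and Trpm2 also overlapped in CNV d3. For Kcna3 and Kcnj2 both lengths were the same, so that check does not bear on their ratio. A different length of Kcna3 in the authors' release would change its rank and this ratio.

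The shares within the summed RPKM of the 5 potassium channel members show the same values as a whole. Kcnk13 took 43.2% ± 4.90 (SD, n = 6) in control and 30.8% ± 2.45 in CNV d3, and Kcnk6 took 41.7% ± 4.51 and 54.6% ± 1.71. Kcnj2 took 12.4% ± 4.56 and 6.37% ± 1.86, and Kcna3 1.98% ± 0.783 and 6.97% ± 1.21. The share of Kcnk6 was 36.5% to 47.8% in control and 52.3% to 57.1% in CNV d3, and these ranges were apart. So were those of Kcnk13 (34.7% to 47.6% and 27.5% to 33.8%) and Kcna3 (1.2% to 3.1% and 5.4% to 8.6%). Those of Kcnj2 and Kcnn4 overlapped. Shares depend on the other genes of the sum, so lower Kcnk13 and Kcnj2 raise that of Kcnk6. In normalised counts the groups of Kcnk6 overlapped. The shares were not tested.

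**Figure D3:**
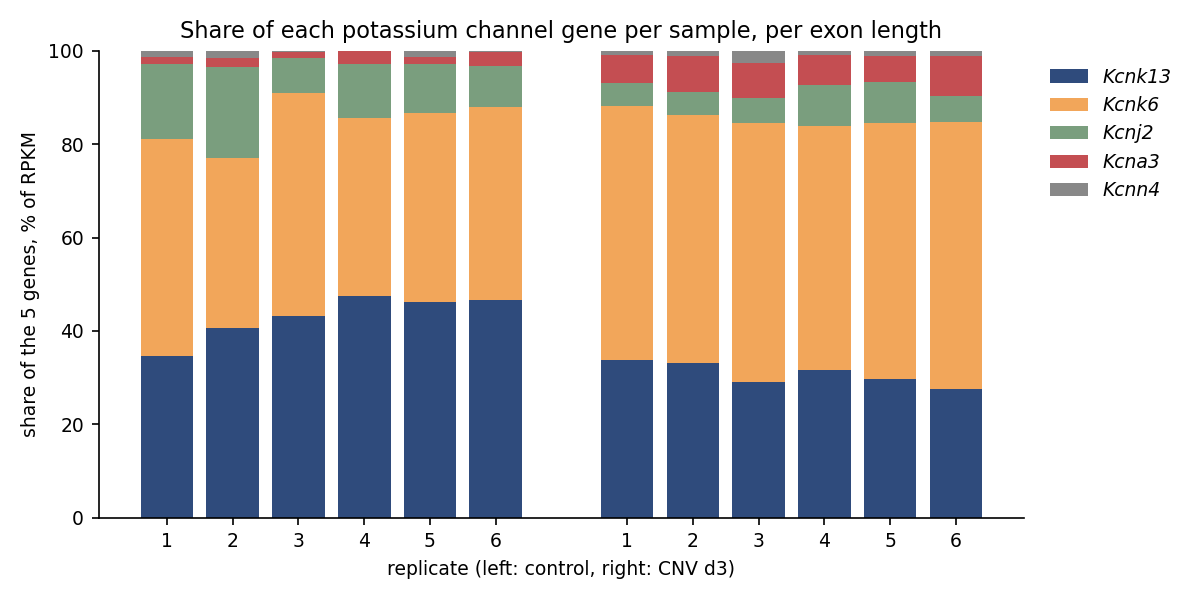
Share of each of the 5 potassium channel genes (y axis, % of their summed RPKM) in each sample, 6 control samples on the left and 6 CNV d3 samples on the right. Kcnk6 takes 52.3% to 57.1% of the CNV d3 bars and 36.5% to 47.8% of the control bars.

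The 5 channel families of the members held 109 listed genes, of which 86 were in the table and 19 had a mean of at least 50 normalised counts in a group. Of all 86 measured, 4 were called higher and 3 lower, where 8.29% and 4.57% of all genes were called. The 19 were the 8 members and 11 others, and of these others 0 were called higher and 1 lower. Kcnj12, which encodes Kir2.2, a relative of Kir2.1, was 72.1 to 205 in control and 3.32 to 66.5 in CNV d3, with no overlap and a log2 fold change of -2.86 ± 0.61 (SE, limma adjusted p 0.00608). With the 3 CNV d3 samples without Y-linked reads its log2 fold change was -1.74 (adjusted p 0.0400), and with Y-linked reads as a term it was the same and not called (adjusted p 0.0921).

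Of the tandem-pore family 11 genes were measured, and 1 was higher and 1 lower, both members. Kcnk12, the relative of Kcnk13 that encodes THIK-2, was at 239 ± 30.9 in control and 202 ± 62.3 in CNV d3 (adjusted p 0.518). Among 12 measured inward rectifier genes 2 were lower, Kcnj2 and Kcnj12, and 0 were higher, while Kcnj10, a glial channel (Kir4.1), was at 88.1 ± 64.1 and 102 ± 66.6. Of 36 measured voltage-gated genes 2 were higher, Kcna3 and Kcnh4, and 0 lower. Kcnd1, the A-type channel Kv4.1, was at 1358 ± 340 and 1090 ± 270 and was not called. Kcnh4 had no reads in control and a mean of 8.72 in CNV d3. Of the 7 measured calcium- and sodium-activated genes 0 were called, and Kcnma1, the large-conductance channel, was at 338 ± 180 and 456 ± 76.3 (adjusted p 0.254). Of 20 measured TRP genes 1 was higher, Trpm5, with a mean of 15.6 in CNV d3 and of 1.52 in control, and 0 were lower. Mcoln1, a lysosomal channel, was at 1048 ± 238 and 1066 ± 70.2, and Trpv4 at 265 ± 177 and 505 ± 160 (adjusted p 0.298).

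**Figure D4:**
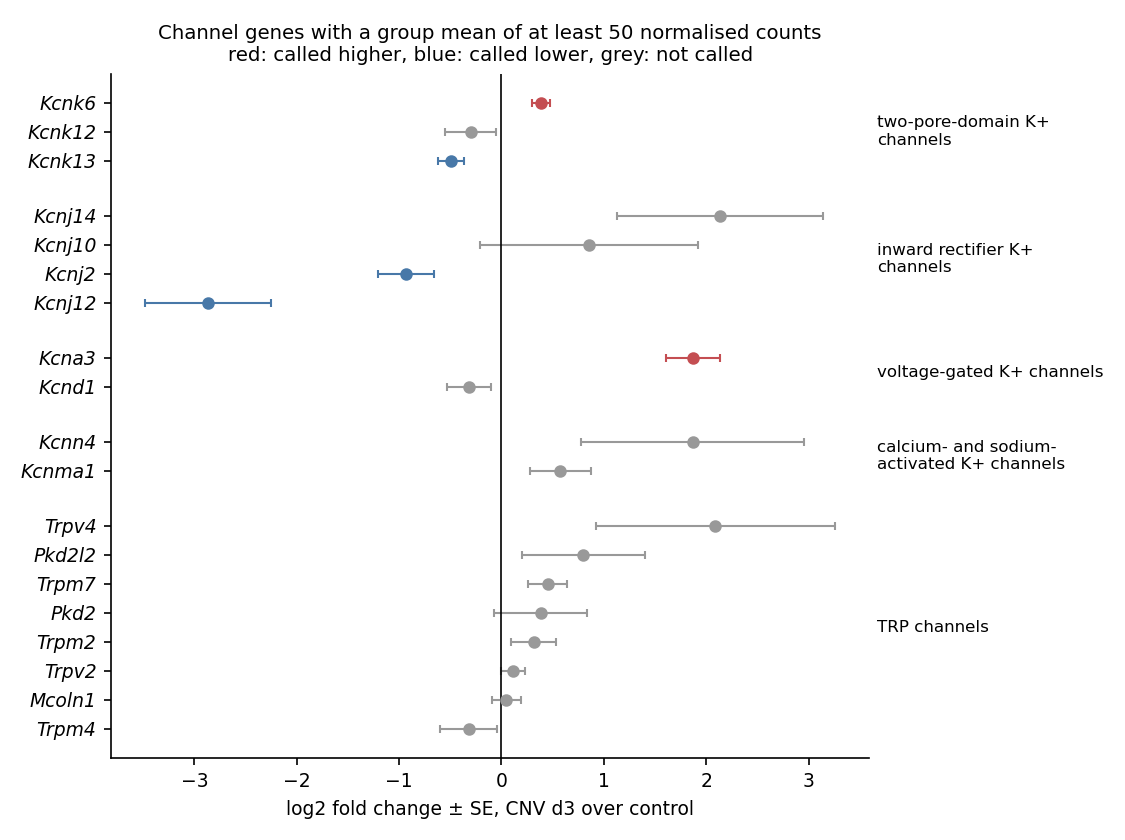
Log2 fold change ± SE (x axis, CNV d3 over control, limma, 6 and 6 samples) of the 19 channel genes with a group mean of at least 50 normalised counts, grouped by family. Called genes are red where higher (Kcnk6, Kcna3) and blue where lower (Kcnk13, Kcnj2, Kcnj12), and the TRP genes are all grey.

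Among the auxiliary subunits of potassium channels 9 were measured, with 1 higher and 1 lower, where 8.29% and 4.57% of all genes were called. Kcnip3, a calcium sensor that binds Kv4 channels and also acts as a transcriptional repressor, fell from 1125 ± 283 to 507 ± 301 normalised counts (log2 fold change -1.38, limma adjusted p 0.0271), a call made in 12 of 25 alternative fits and, when 1 sample was left out, only without CNV d3 replicates 1, 4 or 6 (adjusted p up to 0.103). Kcnab3, with means of 0.525 and 19.7, was the gene called higher. Kcnab2, a beta subunit of Kv1 channels, was at 70.8 ± 59.4 and 196 ± 71.8 and did not pass (adjusted p 0.117).

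Receptors that sense nucleotides and adenosine and act on the potassium channels of microglia were lower for 3 of 5 measured genes. Lower calls made up 4.57% of all genes and 9.45% of the 12753 genes past the filter. P2ry12 also stood on the list of microglia markers, of which 7 of 12 were lower and 1 was higher. P2ry12, the ADP receptor that increases THIK-1 current, fell from 187891 ± 21856 to 61433 ± 16223 normalised counts (log2 fold change -1.65 ± 0.15, SE), and P2ry13 fell from 90344 ± 5214 to 26288 ± 6703 (log2 fold change -1.82 ± 0.13). Adora3 fell by 0.51 on the log2 scale, and P2ry6, a UDP receptor, was at 9074 ± 621 and 7719 ± 1027 and was not called. P2ry12, P2ry13 and Adora3 were called in all 25 alternative fits.

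Of the 7 inflammasome genes 4 were higher and 1 was lower, where 8.29% and 4.57% of all genes were called. For the 12753 genes past the filter these shares were 13.8% and 9.45%. Il1b, the cytokine released on inflammasome activation, was at 224 ± 222 in control and 483 ± 220 in CNV d3 (log2 fold change 1.47, adjusted p 0.0496), and its call held in 7 of 25 alternative fits and, when 1 sample was left out, only without control replicate 3 (adjusted p up to 0.156). Pycard, the adaptor ASC, rose by a log2 fold change of 0.56 and Gsdmd, the pore former, by 0.42, both with no overlap between groups. Nek7, a kinase that binds NLRP3 after potassium loss, rose by 0.38 on that scale. Nlrp3, the sensor of this complex, fell by 0.69 from 1106 ± 222 to 690 ± 177 normalised counts (adjusted p 0.0211). The calls of Nek7 and Nlrp3 held in 15 and 16 of 25 alternative fits. That of Nek7 was lost without control replicates 1 or 3 or CNV d3 replicates 1, 2, 3, 5 or 6 (adjusted p up to 0.0824), and that of Nlrp3 without control replicates 1 or 4 or CNV d3 replicates 2, 3, 5 or 6 (up to 0.0626). Casp1 had a log2 fold change of 0.05 and was not called.

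Of 9 genes of store-operated and ATP-gated calcium entry 2 were higher and 1 was lower. The shares were 8.29% and 4.57% over all genes, and 13.8% and 9.45% over the genes past the filter. Piezo1, a mechanically gated channel included in this list, rose from 492 ± 164 to 1145 ± 296 normalised counts (log2 fold change 1.25, limma adjusted p 0.00136). P2rx4, an ATP-gated channel, rose by a log2 fold change of 0.40, and Orai1, the pore of the store-operated channel, fell by 0.70, each with no overlap between groups. P2rx7, the ATP receptor upstream of potassium loss, was at 6139 ± 1148 and 5241 ± 770 and was not called.

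The 7 listed regulators of KCNN4 had 2 genes higher and 0 lower, where 8.29% and 4.57% of all genes were called. For the genes past the filter these shares were 13.8% and 9.45%. Calm3, which encodes calmodulin, the calcium sensor of the channel, rose by a log2 fold change of 1.13, and Calm2 was at 12817 ± 1653 and 10400 ± 1180 with an adjusted p of 0.0579. Mtmr6, a phosphatase that inhibits the channel, rose by 0.39 on the log2 scale. Of 10 genes that make or break down ADP-ribose, the ligand of TRPM2, 2 were higher and 0 lower, beside those same shares. Parp1, which makes poly(ADP-ribose) on DNA damage, rose from 2739 ± 360 to 4256 ± 532 normalised counts with no overlap (log2 fold change 0.64, limma adjusted p 0.00135). Macrod2, the other gene called, had no reads in control and a mean of 17.9 in CNV d3. Parg and Nudt9, enzymes that free and split ADP-ribose, had log2 fold changes of 0.23 and 0.11 and were not called.

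A list of 13 measured genes covered the sodium-potassium pump, volume-regulated anion channels, chloride cotransport and Tmem175. Of these 2 were higher and 0 lower, where 8.29% and 4.57% of all genes were called. For the genes past the filter these shares were 13.8% and 9.45%. Tmem175 was at 1754 ± 345 and 1675 ± 231 and was not called. Lrrc8c, an anion channel subunit, rose by a log2 fold change of 1.40 with no overlap between groups. Atp1b2, a beta subunit of the pump, rose from 5.05 ± 8.74 to 69.3 ± 63.6 normalised counts and had reads in 2 of 6 control samples. Its call held in 22 of 25 alternative fits, and not in edgeR on the recovered reads or in the 2 fits on Y-linked reads. Atp1b3, another beta subunit, was at 8375 ± 767 and 9039 ± 486 and was not called. With the 3 CNV d3 samples without Y-linked reads, the calls of Kcnip3, Mtmr6, Piezo1, P2rx4, Il1b, Nek7, Nlrp3, Atp1b2 and Lrrc8c were lost. Their log2 fold changes kept their sign, at -0.98, 0.33, 1.12, 0.41, 1.69, 0.35, -0.63, 3.435 and 1.42 in that order. That fit had fewer CNV d3 samples. Kcnj12, Calm3, Parp1, Orai1, Pycard, Gsdmd, P2ry12, P2ry13 and Adora3 were still called. Of the lost calls, Piezo1 (limma adjusted p 0.0221), P2rx4 (0.0433) and Lrrc8c (0.0447) were made with Y-linked reads as a term over all 12 samples. The others were not.

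**Figure D5:**
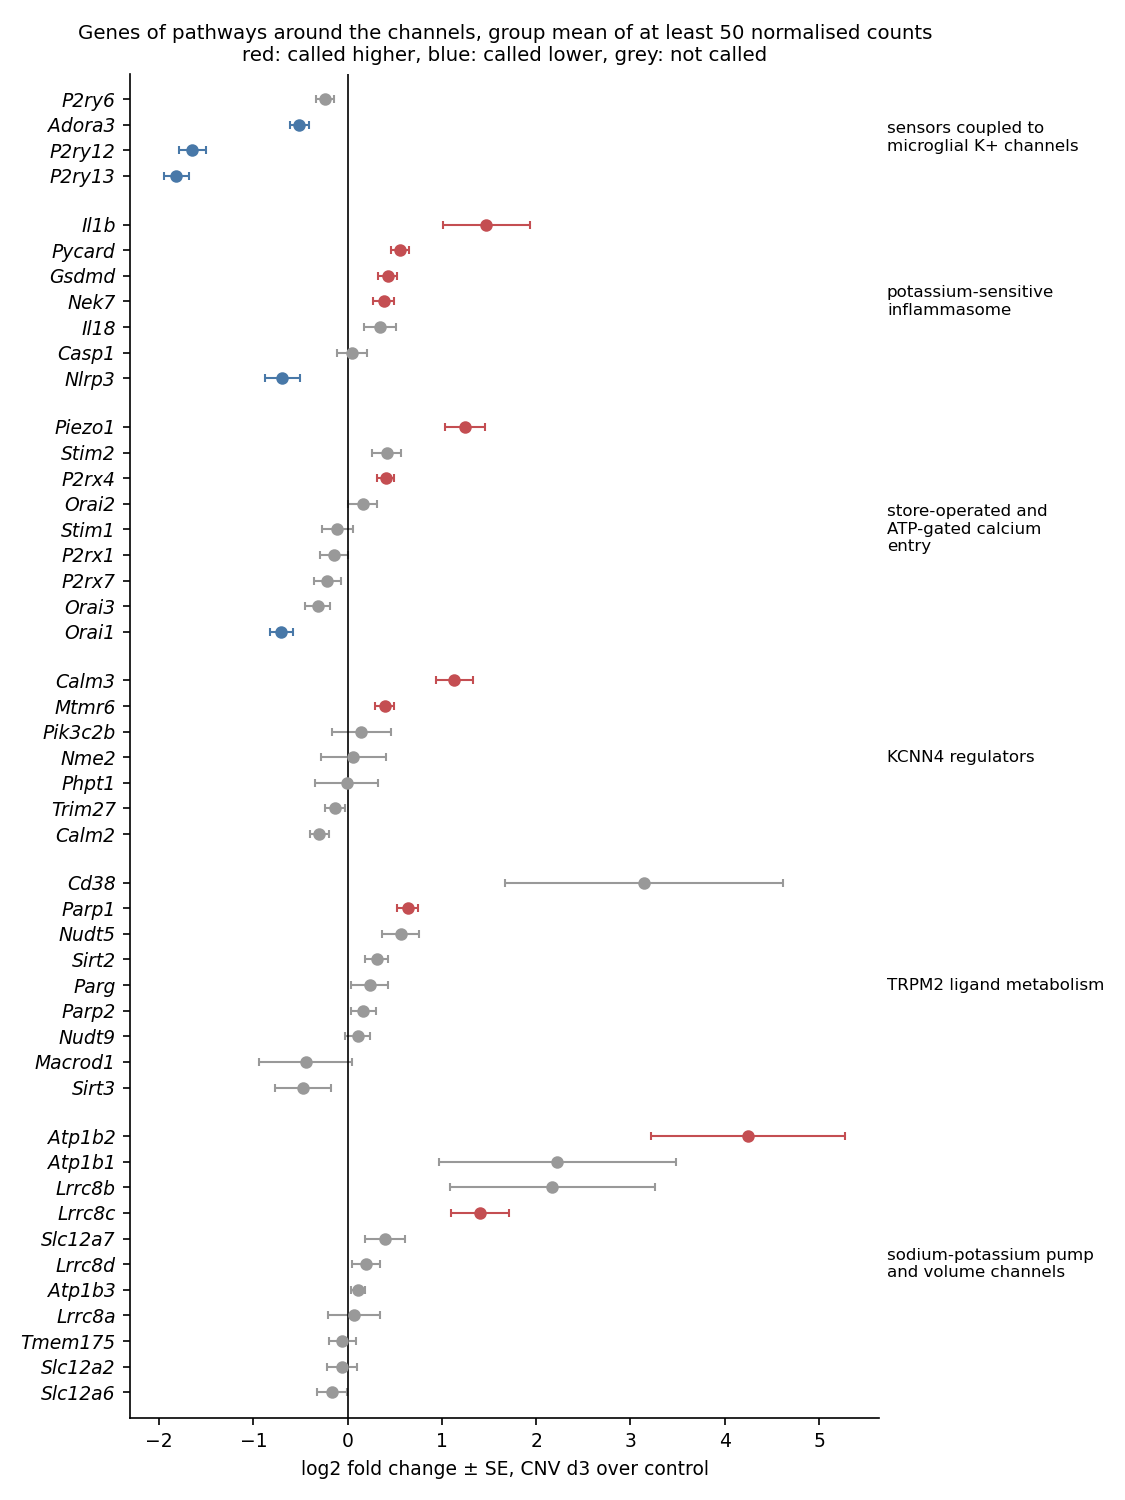
Log2 fold change ± SE (x axis, CNV d3 over control, limma, 6 and 6 samples) of the listed genes of 6 pathways around the channels with a group mean of at least 50 normalised counts. The sensor genes P2ry13 (-1.82) and P2ry12 (-1.65) lie farthest to the left, and Atp1b2 (4.25) farthest to the right.

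The genes closest in profile to each member over the 12 samples were found by the root mean square (RMS) difference of centred log2(value + 1) among 9325 genes. For Kcnk13 they were Ifngr1 (RMS 0.0865), Cnot8 and Sirpa, which compares with an RMS of 0.328 for Kcnk13 around its own mean. For Kcnk6 they were Llgl1 (0.102), Icosl and H2-D1, and for Kcna3 Rassf3 (0.317), Zfas1 and Dnajc13, against 1.02 for Kcna3 around its mean. Kcnj2 was closest to Zfp866 (0.272), Zfp407 and Fan1, and Kcnn4 to Zc3h12a (0.663), Bbs7 and Map3k20. Trpv2 was closest to Ppm1h (0.126), Plod1 and Ccdc12, Trpm2 to Haus2 (0.139), Wipi2 and Tmem237, and Trpm7 to Afg3l1 (0.166), Usp8 and Mapkapk2. The RMS around the own mean was 0.232 for Kcnk6, 0.691 for Kcnj2 and 2.24 for Kcnn4. It was 0.196 for Trpv2, 0.413 for Trpm2 and 0.398 for Trpm7. For Trpv2, which varied little, this was not far above the value of its closest gene.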

How the data were processed

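RNA-seq of 12 samples of sorted retinal microglia was used, 6 CNV d3 and 6 control, grouped by the sample titles. Per the methods, the authors made cDNA from picogram amounts of RNA, sequenced 50 cycles of single reads, mapped them with STAR 2.7.2b to GRCm38.p6 with Gencode M25, merged the flow cells of a sample and counted reads without regard to strand with featureCounts 1.6.4. The deposited signal is the count of a gene divided by its DESeq2 (1.22.2) size factor, the deposited group means are means of it, and the fold change and adjusted p-value columns of the authors were not used. All values of the 12 samples (100%, within 0.01 reads) were whole multiples of 1 read, so reads were recovered.

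Values were compared with limma 3.58.1 (R 4.3.3) on log2(value + 1) with a mean-variance trend, no filter, and Benjamini-Hochberg adjustment over 27299 genes. On this scale the pseudocount shrinks the fold change of low genes, and a sample at 0 weighs more than in a ratio of means. Two-sided exact permutation tests used all 924 labelings of the samples. On the recovered reads, edgeR 4.0.16, DESeq2 1.42.0 and limma voom were alternatives, beside other pseudocounts, a filter, other scalings, thinning, a replicate block and leaving out each sample. The 2 fits on Y-linked reads were added after the data were seen. The main fit, edgeR, DESeq2 and voom were run on simulated data with log2 fold changes of 1 or 2 in either direction, which does not cover smaller changes.

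The members and gene lists were chosen with earlier results of these data known. A few genes of the lists are not reported here and were left out of the counts and sums of their lists. The genes named from the lists were those called with a mean of at least 50 normalised counts in a group, up to 4 in each direction by fold change, and up to 4 uncalled genes of the highest mean. A few low or uncalled genes outside that rule (Thy1, Trpm5, Kcnh4, Kcnab3, Macrod2) were named after their values were seen. For each member, 3 genes of closest profile with a mean of at least 100 were named. Gene positions and exon lengths came from Gencode M21 on GRCm38, with 27238 genes matched by Ensembl identifier. Marker lists of B cells, neutrophils, border macrophages, photoreceptors, Mueller glia, retinal neurons and vessels were also summed. No molecular identifiers marked PCR copies, so read depth speaks to counting error only.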

Additional observations from a re-analysis of the deposited data

Results flagged for a closer look

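Of the 16 sets of 6 samples tested (8 genes in 2 groups), 1 held a sample far from the others. Kcnn4 in CNV d3 replicate 3 was at 381 normalised counts, where the other 5 CNV d3 samples lay between 168.4 and 217.9, and its gap to the nearest of them was 0.768 of the whole range. Chance flags about 1 set in 20.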

How the results depend on the processing

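All 8 members kept the sign of their log2 fold change in the 25 alternative fits. Leaving out each sample in turn gave log2 fold changes of -0.557 to -0.418 for Kcnk13, called in 4 of 12 fits, and -1.10 to -0.77 for Kcnj2, called in 2 of 12, so that 0 to 2 members were called lower. Kcnk6 and Kcna3 were called in all 12, and the other members in none. Limma without a trend gave Kcnk13 -0.49 (adjusted p 0.0775), Kcnk6 0.39 (0.0758) and Kcnj2 -0.93 (0.0844), with 1 member called higher (Kcna3) and 0 lower. Kcnj2 also lost its call with a pseudocount of 5 (-0.93, 0.0511) and after thinning to the shallowest sample (-0.90, 0.114), each of which left 1 member called lower. With the samples that had no Y-linked reads (3 CNV d3 and 6 control, chosen after seeing the data), Kcnk13 was at -0.50, Kcnk6 at 0.32 and Kcnj2 at -1.29 and none was called, so that 1 member was called higher and 0 lower. With Y-linked reads as a term, the values were -0.50 and 0.32 for Kcnk13 and Kcnk6, which were not called, and 1 member was higher and 1 lower. At the DEG threshold 1 member was higher and 0 were lower. The cause of these changes was not tested, and some of the fits also had fewer samples.

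Over all genes the 2264 higher and 1247 lower calls became 1022 and 540 without the samples with Y-linked reads, 1340 and 731 with that term, 1068 and 293 at the DEG threshold, 2492 and 2160 with DESeq2, 1952 and 1181 with edgeR, and 1898 and 1810 under upper quartile scaling. DESeq2 moved the median log2 fold change of 12753 genes by -0.111. The pathway lists together held 17 genes called higher and 9 lower, and 11 and 5 for the samples with no Y-linked reads, 11 higher for limma without a trend, 5 lower with Y-linked reads as a term, and 5 to 9 lower when 1 sample was left out. Among uncalled genes the sign of the log2 fold change turned for Mcoln1 (-0.0095) and Casp1 (-0.012) under upper quartile scaling and for P2rx1 (0.034) in both Y-linked fits. Leaving out 1 sample gave -0.24 to 1.30 for Kcnj10, -0.027 to 0.34 for Pik3c2b, -0.057 to 0.17 for Nme2, -0.044 to 0.14 for Casp1 and -0.12 to 0.040 for Slc12a2.

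The groups share replicate numbers, but samples of the same number did not deviate together (correlations of -0.019 to 0.0507 over 12753 genes, with 1 of 6 matching its own number best). With the replicate block, 2 members were called higher and 2 lower, and 1885 genes were called higher and 975 lower. The depth of 10963178 to 29523018 reads per sample leaves the genes with few reads with the largest relative counting error.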

Other observations

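Other cell types were followed by marker sums in normalised counts. Mueller glia and astrocyte markers had 2 of 8 genes higher and 1 lower, with sums of 19508 to 41272 in control and 57434 to 99517 in CNV d3, most of which was Apoe, a lipid carrier that microglia also make (20865 ± 7381 and 68946 ± 16057, SD, n = 6). Photoreceptor markers had 0 of 10 genes called, with sums of 684 to 6373 in control and 539 to 11946 in CNV d3. Of 8 retinal neuron markers 2 were higher and 1 lower, with sums of 989 to 1716 and 692 to 1363. The higher genes were Syt1 and Thy1, and Thy1 also stood on the T cell list. Of 7 measured vessel markers 1 was higher and 1 lower, of 6 border macrophage markers 1 was higher (Cbr2), and of 5 neutrophil and 3 B cell markers 0 were called. Their part in the channel values was not tested.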
